A study of Homo sapiens with 9 samples.

Results

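Of 4973 distal regions that had an ATAC-seq peak with both siRNAs against INO80 and none with the control siRNA, 3068 carried no exact AP-1 site around any peak summit. These 3068 AP-1-free gained regions are described here. They were chosen by the peak calls themselves and by sequence. The peak lists were merged into 109960 regions on chromosomes 1 to 22, and a region was called distal when it lay over 1 kb from every annotated transcript start, which left 87674. A region was gained when it held a peak of both INO80 siRNA lists and none of the control list. It was AP-1-free when neither TGACTCA nor TGAGTCA, which are each other's reverse complement, lay within 100 bp of a summit, the point of highest coverage in a peak.

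The assay was ATAC-seq, which reads accessible chromatin from the places where a transposase can insert. It was run on HepG2, an established line from a human liver cancer. The cultures were transfected for 72 h with siRNA at 50 nM, namely the control NTG, which targets no gene, siINO80#1 or siINO80#2, and each of these 3 groups had 3 replicates. The 3 replicates of a group were represented by 1 peak list, so no value per replicate and no test between groups could be had. The remaining INO80 in these cells was not measured by these files.

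INO80 is the ATPase of a remodeling complex that slides nucleosomes and acts on nucleosomes with the histone variant H2A.Z. AP-1 is a dimer of FOS, JUN and ATF family proteins that binds distal regulatory elements after growth factor and stress signals, together with factors of the cell type. In liver cells the FOXA factors are among those factors, since they bind sites on nucleosomes and open them for others. CTCF binds a long motif at insulators and at the anchors of chromatin loops.

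The sequences below are the bases of GRCh37, plus strand, 5′ to 3′, from 100 bp before to 100 bp after the strongest summit of a region, a window of 201 bp. They show what the regions held in place of the AP-1 consensus. Capitals mark only the motif or variant for which a region is printed, so lowercase bases can hold others. The most centred 7-base words of the AP-1-free gained regions differed from the AP-1 consensus by 1 base. With positions counted from 1 at the 5′ end of TGACTCA or TGAGTCA, the variant TGAATCA is the change C4A of the former spelling. The variant TGACTAA is the change C6A of the former spelling, and the variant TGAGTAA is the change C6A of the latter. For each variant, the printed regions are among the strongest that held it and have a central sequence found at 1 place in the genome, and each is named by the nearest protein-coding gene.
TGFB2 region, chr1:218670018-218670218: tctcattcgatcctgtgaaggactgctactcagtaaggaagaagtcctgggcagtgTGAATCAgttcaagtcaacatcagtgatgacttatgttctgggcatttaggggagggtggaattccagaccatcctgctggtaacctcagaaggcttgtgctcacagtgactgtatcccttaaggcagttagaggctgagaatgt
ID4 region, chr6:19731611-19731811: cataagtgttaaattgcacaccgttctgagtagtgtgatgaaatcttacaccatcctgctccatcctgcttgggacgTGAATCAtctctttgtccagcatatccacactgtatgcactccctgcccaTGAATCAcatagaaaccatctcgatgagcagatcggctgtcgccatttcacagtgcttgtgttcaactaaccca
SI region, chr3:164242096-164242296: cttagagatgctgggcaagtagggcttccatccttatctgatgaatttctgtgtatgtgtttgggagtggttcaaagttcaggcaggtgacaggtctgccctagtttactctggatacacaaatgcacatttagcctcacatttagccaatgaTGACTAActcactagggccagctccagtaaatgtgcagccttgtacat
PRUNE2 region, chr9:79481746-79481946: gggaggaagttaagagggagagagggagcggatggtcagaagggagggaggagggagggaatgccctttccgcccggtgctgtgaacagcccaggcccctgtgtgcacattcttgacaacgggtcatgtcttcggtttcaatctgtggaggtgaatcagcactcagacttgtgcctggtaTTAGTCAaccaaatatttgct
EYS region, chr6:64754907-64755107: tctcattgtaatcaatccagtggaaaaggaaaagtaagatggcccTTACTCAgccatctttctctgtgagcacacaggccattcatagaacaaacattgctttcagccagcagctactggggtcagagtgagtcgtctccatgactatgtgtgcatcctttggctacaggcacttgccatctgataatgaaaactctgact
MS4A8 region, chr11:60426039-60426239: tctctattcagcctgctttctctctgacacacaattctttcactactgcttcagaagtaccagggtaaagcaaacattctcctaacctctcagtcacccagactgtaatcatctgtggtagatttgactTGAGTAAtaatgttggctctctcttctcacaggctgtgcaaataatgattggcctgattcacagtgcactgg
The capitals in the PRUNE2 and EYS windows are the reverse complements of TGACTAA and TGAGTAA. In lowercase, the PRUNE2 window also holds TGAATCA, and the MS4A8 window holds its reverse complement TGATTCA.

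Of 35 motifs searched, FOXA (TGTTTAC), the E-box CAGCTG and the CTCF core (CANNAGGGG, where N is any base) were the most centred. The printed FOXA match lay 25 bp from the summit, and an unmarked TGAATCA follows it in the same window.
UBE2E2 region, chr3:23136668-23136868: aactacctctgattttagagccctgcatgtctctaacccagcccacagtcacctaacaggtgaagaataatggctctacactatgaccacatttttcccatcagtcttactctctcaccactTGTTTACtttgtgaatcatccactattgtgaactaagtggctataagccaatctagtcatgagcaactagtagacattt
The E-box is bound by helix-loop-helix factors, and its matches lay 59 and 62 bp from the summit.
LGR5 region, chr12:71824616-71824816: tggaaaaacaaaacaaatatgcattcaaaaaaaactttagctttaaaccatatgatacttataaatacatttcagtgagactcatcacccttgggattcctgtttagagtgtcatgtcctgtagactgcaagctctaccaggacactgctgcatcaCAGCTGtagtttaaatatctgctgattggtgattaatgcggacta
RWDD3 region, chr1:95752187-95752387: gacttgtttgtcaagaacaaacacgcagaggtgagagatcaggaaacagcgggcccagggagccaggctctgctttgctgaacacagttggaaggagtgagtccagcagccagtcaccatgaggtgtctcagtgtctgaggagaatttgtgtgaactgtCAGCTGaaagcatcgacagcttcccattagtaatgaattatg
The CTCF core matches lay 69 and 21 bp from the summit. In lowercase, the NSUN3 window also holds the reverse complements of TGACTAA and TGAGTAA. That of TGAGTAA lies nearer to the summit than the marked CTCF match, so this window is not an example of the CTCF core alone.
NSUN3 region, chr3:94947437-94947637: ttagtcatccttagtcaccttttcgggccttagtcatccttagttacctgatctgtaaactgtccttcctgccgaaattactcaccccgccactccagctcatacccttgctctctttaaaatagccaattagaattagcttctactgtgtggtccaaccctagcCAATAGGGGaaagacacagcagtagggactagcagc
ACVR1C region, chr2:158429312-158429512: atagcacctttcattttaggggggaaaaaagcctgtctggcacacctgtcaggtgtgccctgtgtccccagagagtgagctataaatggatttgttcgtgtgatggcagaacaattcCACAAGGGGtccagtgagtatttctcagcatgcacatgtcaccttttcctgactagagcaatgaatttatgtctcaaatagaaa

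Gained regions were 5.67% of all distal regions, and AP-1-free gained regions were 4.13% of the 74219 distal regions without an AP-1 site. The rule fixed these counts, and they are given as background. Among distal gained regions, 61.7% (95% Wilson interval 60.3 to 63.0, n = 4973) had no AP-1 site. The same share was 68.4% in regions with a peak in all 3 lists and 94.6% in regions of the NTG list alone. It was 89.0% with siINO80#1 alone and 89.3% with siINO80#2 alone. The consensus was thus more frequent in gained regions than in any other combination of lists. The share without it rested on the peak threshold. At a −log10 q of at least 5 it was 50.2% (48.3 to 52.1) with the threshold in all lists and 49.8% (47.0 to 52.6) with it in both siINO80 lists only, so the gained regions of these stricter lists were not mostly AP-1-free. Wilson and Newcombe intervals, here and below, cover counting error only and treat regions as independent, which neighbouring regions are not.

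The AP-1-free gained regions were close in strength to all distal AP-1-free regions and weaker than those with a peak in all 3 lists. The fold enrichment, the coverage at the summit over the local background of the same list, ranged from 1.76 to 10.3 in siINO80#1, with a median of 3.06 and quartiles of 2.60 and 3.76. In siINO80#2 it ranged from 1.48 to 8.80, with a median of 2.90 and quartiles of 2.56 and 3.47. In the NTG list these regions have no value, and their accessibility there is unknown rather than 0. The median region ranked at percentile 46.2 of the siINO80#1 list and 39.8 of the siINO80#2 list. Fold enrichment above the median of both lists was seen in 24.7% of them (23.2 to 26.3), against 39.0% (36.8 to 41.2) of the 1905 gained regions with an AP-1 site and 63.2% (62.3 to 64.1) of the 11923 AP-1-free regions with a peak in all 3 lists. Gained regions with an AP-1 site had median fold enrichments of 3.37 and 3.17, and all distal AP-1-free regions 2.92 and 2.91.

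The median peak width was 283 bp in siINO80#1 and 263 bp in siINO80#2. It was 260 and 267 bp in all distal AP-1-free regions, and 460 and 393 bp in those of all 3 lists. Reads at the summit, recovered from the fold enrichment and p of each peak, had a median of 21 in both lists, with ranges of 14 to 328 and 15 to 366, against medians of 34 and 29 in AP-1-free regions of all 3 lists. The strongest summits of the siRNA lists lay a median of 56 bp apart within a region, and 65.9% (64.2 to 67.5) lay at most 100 bp apart. The last share was 72.0% in gained regions with an AP-1 site and 76.9% in AP-1-free regions of all 3 lists. Across the AP-1-free gained regions, the fold enrichments of both siRNAs had a Spearman rho of 0.54 (n = 3068 regions), against 0.53 in gained regions with an AP-1 site and 0.77 in AP-1-free regions of all 3 lists. These points share the libraries, and regions were kept only when called in both lists.

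**Figure D1:**
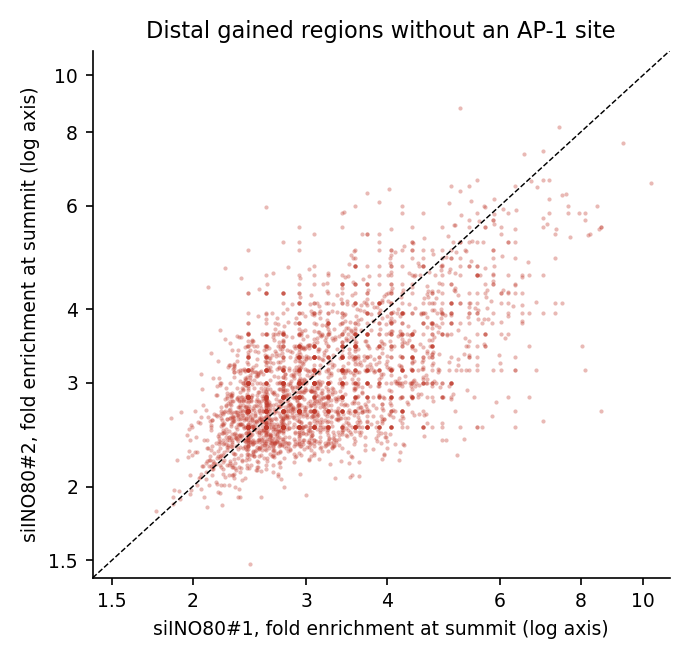
Fold enrichment at the summit in siINO80#1 (x axis) and siINO80#2 (y axis), both on log axes, for the 3068 AP-1-free gained regions, 1 point per region, with the line of equality dashed. The medians are 3.06 and 2.90, and the rows of points are regions with the same whole number of reads over the same genome background.

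The lists differed in depth, and this bears on the absence of NTG peaks. Relative to NTG, the siINO80#1 list held 1.43 times and the siINO80#2 list 1.44 times the reads, as recovered from the peak values. The lists did not grow with depth, with 69730 separate peaks in NTG, 69333 in siINO80#1 and 53113 in siINO80#2. When the reads at each summit were scaled to the background of NTG, 1787 of the 3068 regions (58.2%, 56.5 to 60.0) would have reached the lowest −log10 p of the NTG list in both siRNA lists. The other regions could not be told from ones that NTG was too shallow to show. The same share was 74.8% (72.8 to 76.7) in gained regions with an AP-1 site. An NTG peak lay within 1 kb of 13.0% (11.9 to 14.3) of the AP-1-free gained regions and within 5 kb of 38.6% (36.9 to 40.3). For gained regions with an AP-1 site these shares were 8.56% (7.38 to 9.90) and 31.5% (29.5 to 33.7).

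Ranked by the lower of its percentiles in the siRNA lists, the strongest AP-1-free gained region with a unique central sequence lay in an intron at EYS, a gene of photoreceptors, at chr6:64754863-64755495. Its fold enrichment was 9.32 with siINO80#1 and 7.67 with siINO80#2, from 88 and 69 reads. An intronic region at chr1:218670008-218670288, 62650 bp from a start of TGFB2, a TGF-beta ligand, reached 7.41 and 8.18. Both hold a printed AP-1 variant. The region at chr3:164242024-164242416, whose nearest protein-coding start is that of SI, a sugar-cleaving enzyme of the gut, had 10.3 and 6.56 and a wider gap between the siRNAs. Regions nearest to UBE2E2, NSUN3 and ID4 had 6.99, 6.99 and 6.85 with siINO80#1 and 6.63, 7.42 and 6.45 with siINO80#2. ID4, an inhibitor of helix-loop-helix factors, was 105890 bp from its region, and distances to the nearest gene are often this long, so a named gene is a landmark and not a shown target.

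At each threshold, the region nearest to it on either side was as follows. Just inside the distance limit, a region 1003 bp from the nearest transcript start, at C1orf115, had fold enrichments of 2.60 and 2.46. Just outside, the region chr5:124078704-124079064, at 996 bp, had 5.72 and 4.42. Just inside the AP-1 limit, a region at ZNF341 had the consensus centred 98 bp from its nearest summit and fold enrichments of 2.03 and 2.43. Just outside, a region at PAX8 had it at 97 bp, with 2.75 and 2.40. An exact AP-1 site stood 100 to 250 bp from the strongest summit in 6.13% (5.33 to 7.03) of the AP-1-free gained regions, close to the 6.29% of all distal AP-1-free regions.

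One-base variants of the AP-1 consensus were concentrated at the summits. TGAATCA was the most centred of all 8192 words of 7 bases, where a word and its reverse complement count as 1. It was found in 10.4% (9.37 to 11.5) of the 201 bp windows at the summit and in 3.59% of windows of the same length centred 500 bp to either side, called flanks below. The difference was 6.81 percentage points (95% Newcombe interval 5.67 to 8.02). TGACTAA was the next word, with 8.67% against 2.48% (difference 6.19, 5.16 to 7.30). TGAGTAA was at place 12, with 7.11% against 3.13% (difference 3.98, 3.002 to 5.02). Among the other words in the first 12 were GTAAACA, which is the FOXA motif on the opposite strand, CCACTAG, which is part of the CTCF site, and CAGCAGG, which also led the words of the NTG list alone. None of the 3 variants was among the first 12 words of the AP-1-free regions of NTG alone or of all 3 lists.

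Other changes of the consensus gave smaller differences or none. Of the 19 variants that differ from TGACTCA or TGAGTCA by 1 base, 12 had a whole interval above 0 and 3 below. TGACACA (T5A of TGACTCA) was in 6.52% of windows and 3.47% of flanks. TGACTTA (C6T of TGACTCA) was in 2.80% and 2.82%, with an interval of −0.71 to 0.74 for the difference. TGAGGCA (T5G of TGAGTCA) was less frequent at the summit, with 4.89% against 7.90%. Any of the 19 was held by 55.9% (54.2 to 57.7) of the regions and 45.7% of their flanks. Without the 3 named variants the other 16 were held by 44.1% and 40.2%, so the C4A and C6A changes carried most of the excess.

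At least 1 of the 3 variants was found in 711 of the 3068 AP-1-free gained regions, or 23.2% (21.7 to 24.7), against 8.78% of flanks. The 3 were named after the words had been ranked in these same regions, so this excess is a description. In gained regions with an exact AP-1 site the share was 21.6% (19.8 to 23.5), and the difference of 1.60 points had an interval of −0.80 to 3.95. In AP-1-free regions of all 3 lists it was 16.3%, lower by 6.84 points (5.24 to 8.50). In AP-1-free regions of NTG alone it was 8.82%, near its flanks at 8.40%, and 14.4 points lower (12.8 to 15.9). The regions of siINO80#1 alone and siINO80#2 alone held 11.6% and 10.998%. TGACTAA by itself was in 6.56% of gained regions with an AP-1 site, 2.11 points (0.58 to 3.58) lower than in AP-1-free gained regions. The variants were thus frequent in gained regions with and without the consensus, and close to the flank level in regions of NTG alone. The set of all 19 variants was not chosen by the ranking, but it includes these 3, which carried most of its excess over the flanks. For all 19, the difference from AP-1-free regions of all 3 lists was 4.39 points (2.42 to 6.36) and from NTG alone 10.3 points (8.44 to 12.2).

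**Figure D2:**
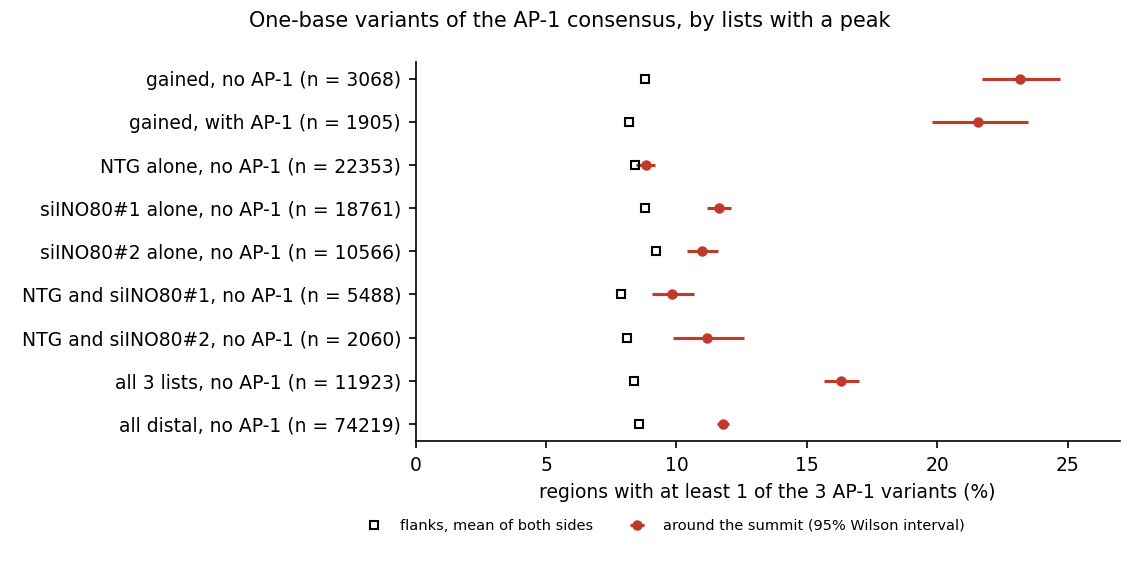
Share of regions with at least 1 of the 3 AP-1 variants within 100 bp of the strongest summit (points, with 95% Wilson intervals) and the mean of both flanks (open squares), by the lists with a peak in the region. The gained regions stand at 23.2% without and 21.6% with an AP-1 site, all other classes at 16.3% or less, and all flanks between 7.87% and 9.21%.

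The share of regions with these variants rose with strength. The weaker of the siRNA peaks of a region was ranked within its list, and regions were divided by this percentile. The variants were found in 17.9% (15.8 to 20.1, n = 1215) of regions at percentiles 0 to 25, 22.3% (19.9 to 24.9, n = 1094) at 25 to 50, 31.1% (27.6 to 34.8, n = 634) at 50 to 75 and 42.4% (34.1 to 51.2, n = 125) above 75. Flanks stayed between 8.28% and 10.0%. AP-1-free regions of all 3 lists went from 11.2% to 21.1% over the same steps, and within the top step the difference was 21.3 points (12.8 to 30.1). Gained regions with an AP-1 site went from 17.6% to 34.1%. AP-1-free gained regions were higher than these by 4.32 points (0.38 to 8.09) at percentiles 25 to 50. At the other steps the interval of this difference included 0. The 711 regions with a variant had median fold enrichments of 3.36 and 3.11, against 2.95 and 2.84 in the rest. Peak strength entered the rule through the call of a peak in both siRNA lists and through the absence of an NTG peak, which depends on depth. The part of the rule in this rise was not tested.

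**Figure D3:**
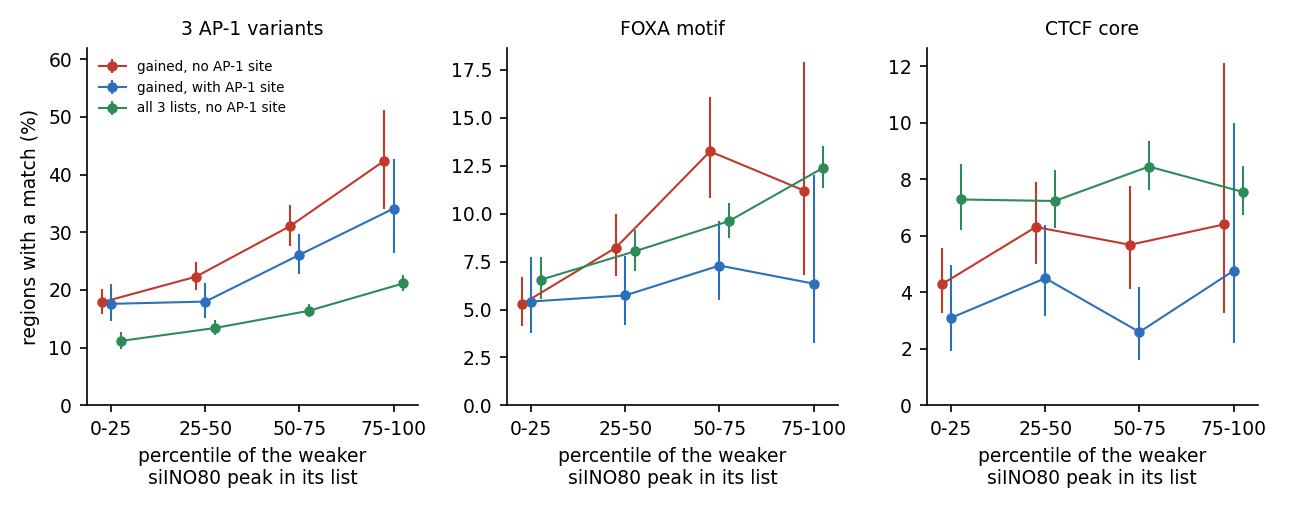
Share of regions with the 3 AP-1 variants, the FOXA motif or the CTCF core within 100 bp of the strongest summit, by the percentile of the weaker siINO80 peak within its list, with 95% Wilson intervals. The AP-1 variants go from 17.9% to 42.4% in gained regions without an AP-1 site, whereas the CTCF core stays between 4.28% and 6.40%.

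Among the 35 searched motifs, 15 were more frequent at the summit than in the flanks of AP-1-free gained regions, with the whole interval above 0, and 5 were less frequent. FOXA was in 8.21% (7.29 to 9.24) of the windows and 3.34% of the flanks, a difference of 4.87 points (3.84 to 5.98). Its share was 9.61% in AP-1-free regions of all 3 lists, 5.45% in all distal AP-1-free regions and 3.81% in those of NTG alone. Gained regions with an AP-1 site held it in 6.19%, lower by 2.02 points (0.53 to 3.45). Over all strengths, FOXA was therefore more frequent in AP-1-free gained regions than in gained regions with an AP-1 site. It was less frequent in them than in the regions of all 3 lists, by 1.398 points (interval of the difference −2.47 to −0.25). This lower share did not hold among regions of like strength. FOXA was in 5.27% of gained and 6.55% of all-list regions at percentiles 0 to 25, in 8.23% and 8.03% at 25 to 50, in 13.2% and 9.61% at 50 to 75 and in 11.2% and 12.4% above. The gained regions were higher by 3.64 points (1.04 to 6.63) at percentiles 50 to 75, and the intervals of the other differences included 0. The difference from gained regions with an AP-1 site was 5.96 points (2.60 to 9.34) at percentiles 50 to 75. At the other steps its interval included 0.

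The E-box CAGCTG was held by 12.3% (11.2 to 13.5) of the windows and 7.59% of the flanks, against 11.5% of all distal AP-1-free regions and 13.8% of gained regions with an AP-1 site. It was less frequent than in AP-1-free regions of all 3 lists, with 13.9%, by 1.59 points (interval of the difference −2.87 to −0.24). Among regions of like strength, this interval excluded 0 only at percentiles 0 to 25 (−5.29 to −0.36). The CTCF core was held by 5.38% (4.63 to 6.23) and 2.31%, respectively. CTCF was less frequent than in AP-1-free regions of all 3 lists, with 7.74%, and more frequent than in gained regions with an AP-1 site, with 3.52%. Both intervals of these differences excluded 0. Among regions of like strength, the CTCF difference from regions of all 3 lists excluded 0 only at percentiles 0 to 25 and 50 to 75. The CTCF difference from gained regions with an AP-1 site excluded 0 only at percentiles 50 to 75. The antioxidant response element TGACNNNGC, which small MAF and NRF2 dimers bind and which shares its first 4 letters with the AP-1 consensus, was in 8.34% of windows and 5.85% of flanks.

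The glucocorticoid receptor motif ACANNNTGT was in 7.99% and 5.92%, and the TEAD motif GGAATGT, a partner motif of YAP, in 4.73% and 2.90%. In AP-1-free regions of all 3 lists TEAD was in 5.70%, and the difference of −0.98 points had an interval of −1.80 to −0.07. The ETS motif CNGGAAGT was in 4.04% and 2.30%. The SOX motif ACAATGG was in 4.04% and 2.46%, and it was more frequent than in AP-1-free regions of all 3 lists by 1.06 points (0.34 to 1.87). Of the 35 motifs, 2 were more frequent than in regions of all 3 lists, namely SOX and the p53 motif ACATGTC, and 9 were less frequent. These 9 were FOXA, HNF4A, HNF1, the nuclear receptor motif AGGTCA, TEAD, CTCF, SP/KLF, NRF1 and the E-box. The p53 difference was 0.53 points (0.01 to 1.15), and the interval of its difference from the flanks included 0. None of these intervals was corrected for the number of motifs. The HNF4A motif CAAAGTCCA was in 0.59% of AP-1-free gained regions and 1.55% of AP-1-free regions of all 3 lists. The other 27 motifs differed from the flanks by −4.22 to 1.499 points. The lowest of these was the motif AGATAA of the GATA factors. The summit windows held 45.6% ± 7.38 (SD, n = 3068) G and C bases and the flanks 41.1%. Summit windows of AP-1-free regions of all 3 lists held 48.5%, and the part of base content in the motif shares was not tested.

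**Figure D4:**
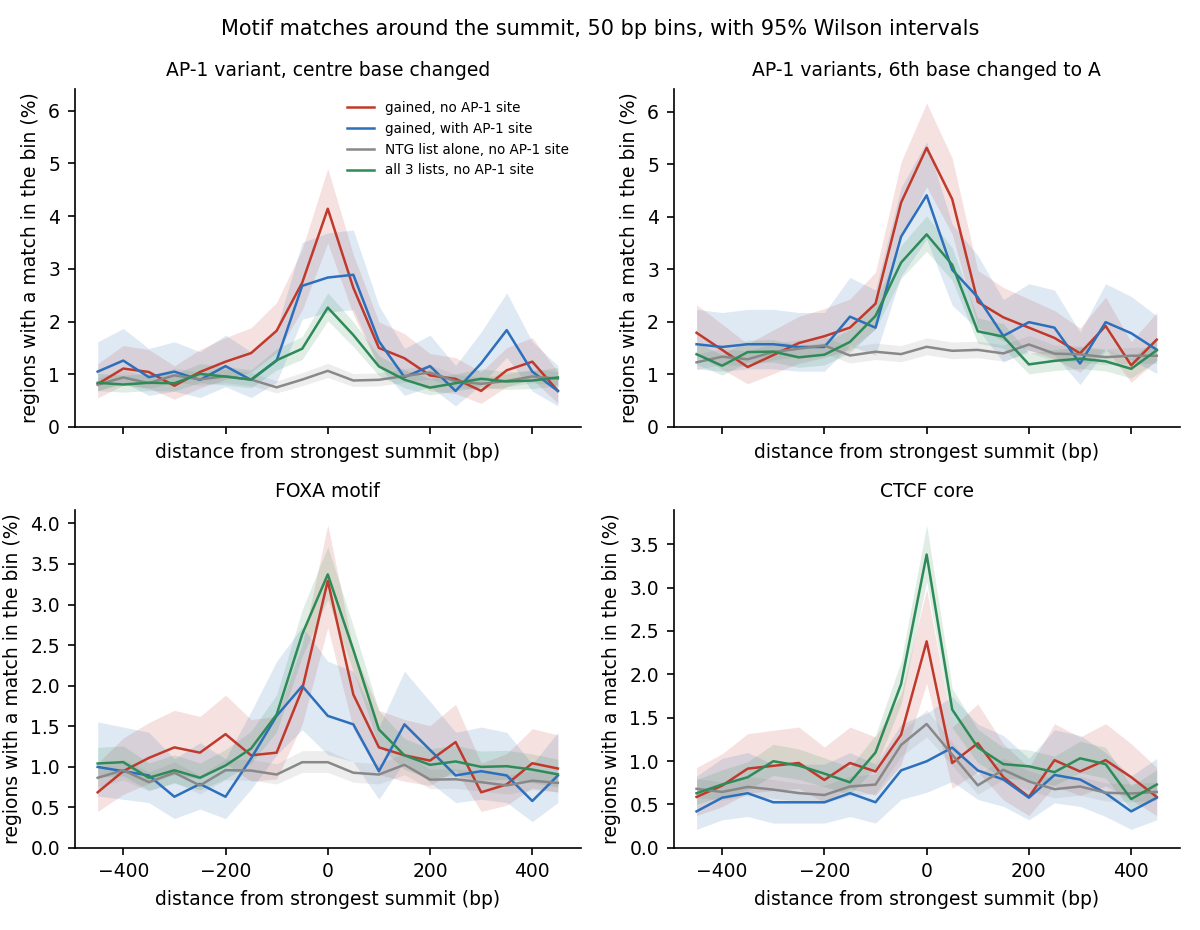
Share of regions with a motif match in bins of 50 bp by distance from the strongest summit, with 95% Wilson intervals shaded, for the AP-1 variant with its centre base changed, the AP-1 variants with the 6th base changed to A, the FOXA motif and the CTCF core. In gained regions without an AP-1 site all 4 peak at the summit, whereas in regions of the NTG list alone both kinds of AP-1 variant stay flat. Both kinds also rise around the summit in gained regions with an AP-1 site and in AP-1-free regions of all 3 lists. In the latter they reach 2.26% and 3.67% in the summit bin, against 4.14% and 5.31% in gained regions without an AP-1 site.

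Most of the regions held none of the 3 AP-1 variants, FOXA, the E-box CAGCTG or the CTCF core. The shares with none and with a variant and FOXA together were not computed for other classes or flanks. They are therefore not shown to be particular to these regions. Of the 3068 AP-1-free gained regions, 252 held FOXA, 377 the E-box and 165 the CTCF core at the summit, beside the 711 with an AP-1 variant. A variant and FOXA were found together in 58 regions. None of these 4 was held by 1789 regions, or 58.3% (56.6 to 60.0), which were weaker, with median fold enrichments of 2.92 and 2.84 against 3.24 and 2.999 in the others. Regions with FOXA had medians of 3.49 and 3.16. Regions with the E-box, at 3.04 and 2.94, hardly differed from regions without it, at 3.07 and 2.90. The full CRE palindrome TGACGTCA, which CREB and ATF dimers bind, was near a summit in 7 regions, or 0.23%. This share was 0.16% in all distal AP-1-free regions and 0.49% in those of all 3 lists.

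The AP-1-free gained regions lay in introns in 56.1% (54.3 to 57.8), between genes in 40.4% (38.6 to 42.1) and in exons in 3.55% (2.95 to 4.27) of cases. All distal AP-1-free regions gave 56.3%, 40.1% and 3.59%, so the gained regions did not stand apart by annotation. The strongest summit was a median of 16376 bp from the nearest transcript start, with a range of 1064 to 492407 bp. It was over 10 kb away in 65.1% (63.4 to 66.8) of regions and over 100 kb away in 6.23% (5.42 to 7.14). Another AP-1-free gained region lay within 10 kb of 6.16% and within 100 kb of 35.98% of them. The central 31-base word occurred more than 1 time in the genome for 142 regions, or 4.63% (3.94 to 5.43), against 2.47% of gained regions with an AP-1 site.

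Chromosomes 2, 6, 14 and 20 held the most regions per length. Chromosome 14 had 2.66 per Mb of known sequence and chromosome 2 had 2.65 per Mb, with 632 regions. As a share of the distal AP-1-free regions of the same chromosome, these values became 5.25% (4.63 to 5.94) and 3.72% (3.45 to 4.02). Both were within the range of 2.42% on chromosome 22 to 5.46% on chromosome 21. The interval of chromosome 14 lay above the 4.13% of all distal AP-1-free regions, and that of chromosome 2 below it. These 4 chromosomes held 43.5% (41.8 to 45.3) of the AP-1-free gained regions, 45.3% of all distal AP-1-free regions and 30.1% (28.1 to 32.2) of gained regions with an AP-1 site. They also held 44.4% of the AP-1-free regions of NTG alone, so the density there was not particular to the gained regions. The share was lower in AP-1-free regions of all 3 lists, at 34.4% (33.6 to 35.3), and of NTG and siINO80#1, at 36.7%, and higher in those of siINO80#1 alone and siINO80#2 alone, at 50.4% and 55.5%. The number of copies of these chromosomes in HepG2 was not tested. Without these chromosomes, the excess of the 3 AP-1 variants over the flanks moved from 14.4 to 18.5 points.

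**Figure D5:**
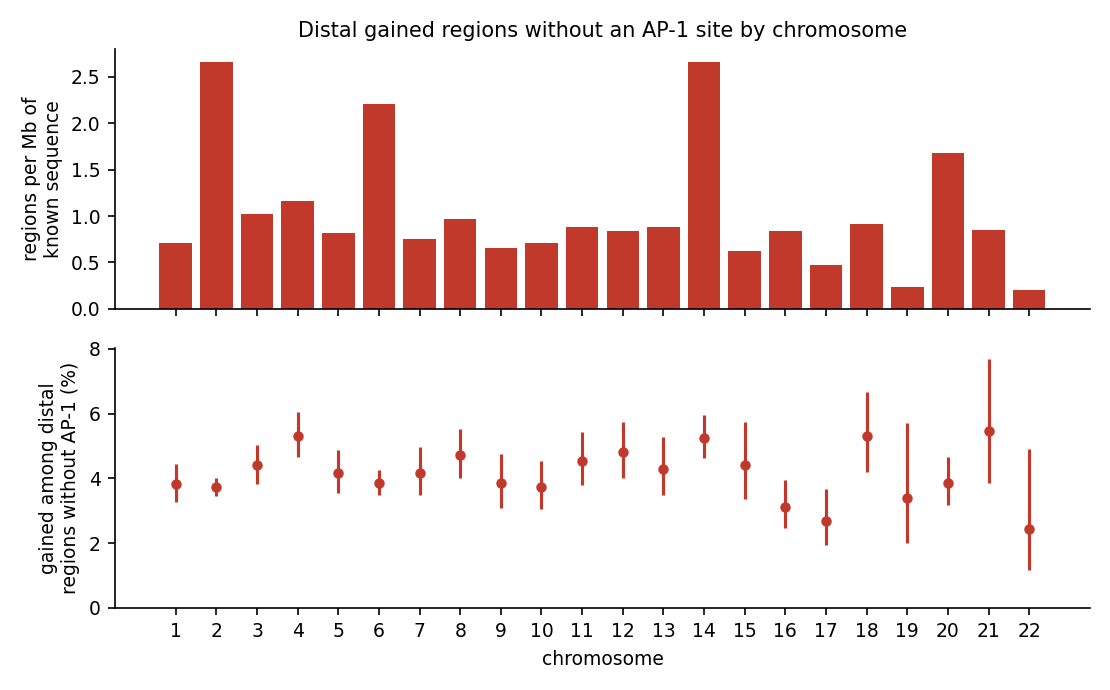
AP-1-free gained regions per Mb of known sequence (upper bars) and as a share of the distal regions without an AP-1 site of the same chromosome (lower points, with 95% Wilson intervals), for chromosomes 1 to 22. Chromosomes 2, 6, 14 and 20 stand out in the upper panel, with 2.65, 2.204, 2.66 and 1.68 per Mb. In the lower panel they lie within the range of the other chromosomes.

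Of 19222 protein-coding genes, 1995 (10.4%) had an AP-1-free gained region nearer to their start than to that of any other gene. A single region was assigned to 1471 genes and at least 4 to 102 genes. The genes with the most regions also had many distal AP-1-free regions of other classes nearest to them. LRFN5, a synaptic adhesion protein, had 30 of the 575 distal AP-1-free regions nearest to it, FBXO33 had 21 of 281, and EYS and LRP1B, both long genes, had 19 of 352 and 19 of 403. NOVA1, a neuronal splicing factor, had 16, ACVR2A and PRKD1 had 12 each, and TPTE had 13. Of the distal AP-1-free regions nearest to these genes, 4.71% to 7.47% were gained, against 4.13% over all genes, except for TPTE with 13 of 121 (10.7%). The genes were picked by their number of gained regions, which itself favours a share above 4.13%, so no excess is read from these values. Among the 13 at TPTE, 7 had a central word that is repeated in the genome, and among the 21 at FBXO33, 4 had one.

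The genes of 10 lists were compared with this background. Receptor tyrosine kinase and MAPK genes, which carry growth factor signals, had a region nearest to 13 of 38 genes, or 34.2% (21.2 to 50.1), against 10.4% of all protein-coding genes. As a share of the distal AP-1-free regions nearest to these genes, gained regions were 5.43% (3.91 to 7.49), an interval that includes the 4.13% of all genes. In all, 626 distal AP-1-free regions were nearest to these 38 genes. Regions at ERBB4, EPHB2 and INSR, which encode receptor kinases, lay 17980, 21131 and 29354 bp from their starts. Their fold enrichments were 4.75, 4.06 and 3.35 with siINO80#1 and 4.58, 3.67 and 3.43 with siINO80#2. The nearest gene to a stronger region, with 7.63 and 5.998, was SPRY2, an inhibitor of these receptors' signal, at 638102 bp.

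TGF-beta signalling genes had a region nearest to 6 of 25 genes, with TGFB2 the strongest. A region 31365 bp from LTBP1, which stores latent TGF-beta, had 4.18 and 3.05, and a region 52090 bp from BMP2, a ligand of the family, had 3.35 and 2.68. TEAD and YAP factors and targets had one at 7 of 29 genes. The intronic region 13066 bp from a start of TEAD1 had 3.14 and 3.02, and the one 18373 bp from a start of AMOTL1, an angiomotin family protein that binds YAP, had 4.39 and 4.58. Mesenchymal and adhesion genes had one at 7 of 37, among them ITGA2, a collagen receptor subunit, with 3.41 and 3.47. In these lists gained regions were 5.17%, 2.22% and 3.14% of the distal AP-1-free regions nearest to the genes, and each interval but that of the TEAD and YAP list (1.21 to 4.03) included 4.13%.

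Liver genes were also among the nearest genes. Liver transcription factors had a region at 5 of 28 genes, or 17.9% (7.88 to 35.6), against the 10.4% of all genes. Gained regions were 2.24% (0.96 to 5.14) of the distal AP-1-free regions nearest to these genes, an interval that includes 4.13%. The region 54388 bp from HNF4G, a nuclear receptor, had 5.36 with siINO80#1 and 6.47 with siINO80#2. The one 23527 bp from GATA6, an endoderm factor, had 5.69 and 3.63, and the one 16069 bp from FOXA2 had 2.98 and 3.05. Among liver secreted proteins 5 of 35 genes had one, and gained regions were 6.73% (3.30 to 13.2) of the distal AP-1-free regions nearest to the list, which also includes 4.13%. These regions lay 6168 bp from F5 (coagulation factor V, 4.39 and 3.95), 5247 bp from FGA (fibrinogen alpha chain, 3.18 and 3.77), 8108 bp from ALB (albumin, 3.41 and 2.999) and 9188 bp from AFP (alpha-fetoprotein, 3.09 and 3.31) among others. ALB and AFP had a peak at their own start in the NTG and siINO80#1 lists and none in the siINO80#2 list. Of 11 hepatocyte markers, 10, 10 and 8 had a peak within 1 kb of a start in NTG, siINO80#1 and siINO80#2, and of 9 markers of other cell types 1, 1 and 0 had one.

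In the remaining lists the share of distal AP-1-free regions that were gained was 2.63% for AP-1 family factors, 3.41% for NF-kB and inflammation genes, 1.39% for p53 and damage response genes and 2.78% for INO80 subunits, and each interval included 4.13%. AP-1 family factors had a region at 3 of 19 genes, or 15.8% (5.52 to 37.6), and the regions at FOSL1, MAF and BATF3, which encode members of the family, were weak, with 2.18, 2.61 and 2.60 in siINO80#1 and 2.18, 2.24 and 2.84 in siINO80#2. NF-kB and inflammation genes had one at 3 of 31 (9.68%), including CCL20, a chemokine, with 2.63 and 2.41. The region nearest to PTGS2, a prostaglandin synthase, had 3.41 and 2.999, and its central word occurs 5 times in the genome. Genes of the p53 and damage response had one at 1 of 24, GADD45A, with 2.26 and 2.33. Of 15 INO80 complex subunit genes, INO80C alone had one, 17664 bp from its start in an intron, with 4.85 and 4.67.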

How the data were processed

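ATAC-seq of 9 HepG2 samples, 3 for each of NTG, siINO80#1 and siINO80#2, was represented by 1 narrowPeak list per siRNA, assigned to groups by the sample titles. The submitters' processing notes name hg19 and the tools Trim Galore 0.4.1, Bowtie2, SAMtools, MACS2 and deepTools 2.2.4. The pooling of replicates, the transposase offset and the filter on peaks are not given in the sources used here. The fold enrichment is a ratio that the authors deposited for each summit, with the local background of the same list as its base. For p and q, the authors deposited −log10 values.

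Peaks were merged at a distance of 0 bp. Distance to 220821 transcript starts (GENCODE, lifted to GRCh37) was measured from the edge of a region. The strongest summit is the one of highest fold enrichment. Motifs were exact matches on both strands, whole within the window. Reads at a summit were solved as whole numbers from fold enrichment and −log10 p by the formulas of MACS2, and relative reads depend on this assumption. The regions, motifs, gene lists and 2 alternatives, as well as the 3 AP-1 variants, were chosen with earlier results of these data known or after their values were seen. Named regions are the 6 strongest with a unique central word of 31 bases, the printed ones (1 or 2 of the strongest with a unique central word for each of the 3 most centred motifs and each variant, none used more than 1 time), the 8 genes with the most regions and ties, up to 4 genes per list, and regions next to the thresholds. Some items that this rule names are not reported here. With 1 list per group, nothing was tested between groups. Alternatives covered the peak threshold, list size, merging, distance, AP-1 window, summit, depth and chromosomes. Merging, motif search and read recovery were tested on simulated data. The tools were bedtools 2.31.1, numba 0.67.0, scipy 1.17.1, numpy 2.4.6, pandas 2.3.3, matplotlib 3.10.9 and Python 3.11.15.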

Additional observations from a re-analysis of the deposited data

How the results depend on the processing

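No alternative changed the sign of a difference, but the majority of gained regions without an AP-1 site was lost at a stricter peak threshold. The number of AP-1-free gained regions (3068) became 1327 at a −log10 q of at least 5 in all lists and 605 where this was asked of both siINO80 lists with NTG whole, 2021 with siINO80 summits at most 100 bp apart, 1787 for regions strong enough to be called at NTG depth and 1732 without chromosomes 2, 6, 14 and 20. In this order of settings, the share of distal gained regions without an AP-1 site (61.7%) was 50.2%, 49.8%, 59.6%, 55.7% and 56.5%. The excess of the 3 AP-1 variants over the flanks (14.4 points) was 25.3, 26.4, 17.8, 18.8 and 18.5, and that of FOXA (4.87 points) was 9.68, 7.85, 6.06, 7.27 and 6.73. At equal list size the share was 59.6% and the FOXA excess 6.17. With AP-1 searched within 200 bp the share was 57.9%, and over the whole region it was 59.0%. In windows of 50 bp either side the variants gave 10.4 and FOXA 3.67. The last 2 of the first 5 settings were chosen after seeing the data. The cause of these shifts was not tested. Asking for siINO80 summits at most 100 bp apart, asking for strength at NTG depth and leaving out chromosomes can only remove regions from the count. The other 34 recomputed values of these 4 results stayed within 1.5 times (counts) or within the interval of the reported value, among them those measuring distance from the summit (3109 regions) and leaving out repeated central words (2926). No paired analysis was possible because 1 list stands for the 3 replicates of each group, and for the same reason no replicate could be left out. Depth limits the absence of an NTG peak, as NTG held fewer reads than either siINO80 list.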
